A study of Mus musculus with 18 samples.

Results

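Vgf, Cpne4, Sh3gl2 and Sema4f, 4 neuronal genes of secretion, synaptic function and axon guidance, were followed across the brain arrays of the series. They were found by symbol in the authors' deposited table, which names 51 genes, and joined by feature number to the value table of 12439 features. All 4 were found, each as a single named feature: number 32822 for Vgf, 14793 for Cpne4, 10789 for Sh3gl2 and 14339 for Sema4f. Features outside the 51 carry no name there, so any further probe of these genes was not examined. The authors' table lists the 51 genes with their folds on these same arrays. The direction, size and separation of a difference in the stored potato groups are therefore not independent evidence. Nor is a high rank among all features.

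The study gavaged male BALB/cOlaHsd mice, aged 8 weeks at the start, once a day for 20 days and then measured RNA from brain cubes on one-colour Agilent arrays, 1 array per mouse. All mice ate the same standard chow. Control mice were given water, and ADI mice a solution of 9 pesticides of conventional cultivation, mixed at the acceptable daily intake of each. The flour groups were given 30 mg of tuber flour per day, from conventional (PC) or organic (PO) potatoes, or from potatoes of either cultivation under storage (PCS, POS). The labels give 12 mice per group, of which 3 were sampled, and do not say which brain region a cube held.

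The arrays set limits that touch each result. Of the 15 arrays used, control, ADI and PC have 3 each, whereas PO, PCS and POS have 2. PO replicate 2 was left out because its column is, in all 12439 features, an average of 2 other arrays (PO replicate 3 with PCS replicate 1), and PCS replicate 3 and POS replicate 3 because they correlated negatively with every array used (r from -0.19 to -0.16 over features). POS replicate 3 is also labelled as collected on day 27. The 75th percentile of deposited intensity was 838.5 to 1079 on the 11 arrays from mice given no stored potato, and 1531 to 1995.5 on the 4 stored potato arrays. Arrays were therefore scaled to a common 75th percentile, and storage and array brightness cannot be told apart. POS replicate 2 correlated with the other 14 arrays at r = 0.83 to 0.85 over features. Those 14 correlated with each other at r = 0.97 to 0.98, so POS values are given with and without it. The fit shares a single estimate of spread per feature over all groups. POS replicate 2 therefore also enters the SE and p of comparisons without POS, which are given with it kept unless said otherwise. None of the 23 cell type markers listed for the tissue is among the named features, so the brain label was not checked against markers.

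Neurons release peptides from dense-core granules and fast transmitters from synaptic vesicles, which they recover by endocytosis. Vgf encodes a secreted precursor, induced by nerve growth factor and by neuronal activity, that is cut into several peptides. Cpne4 encodes a copine, a protein with C2 domains that binds phospholipid membranes when calcium is present. Sh3gl2 encodes endophilin A1, which bends the membrane of a budding vesicle and recruits synaptojanin and dynamin in clathrin-mediated endocytosis. Sema4f encodes a transmembrane semaphorin of class 4, a family of guidance cues for growing axons. In bulk tissue such as this, fewer cells of a type and less RNA per cell cannot be told apart.

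All 4 genes had their highest values on the arrays of stored potatoes. On each gene the lowest of the 4 PCS and POS arrays lay above the highest of the 11 control, ADI, PC and PO arrays. That separation was found for 232 of 12439 features (1.87%), and for 288 (2.32%), again with all 4 genes, once POS replicate 2 was left out. The order of features within an array, which no scaling can alter, gave the same separation for all 4. The share of all features separated by that order was not counted. No gene passed the test over all features in any of 11 comparisons (limma with Benjamini-Hochberg adjustment, threshold 0.05), and 0 of 12439 features passed in each (0%). The number of features with an unadjusted p under 0.05 ran from 169 in PC against PO (1.36%) to 3451 in POS against control (27.7%).

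**Figure D1:**
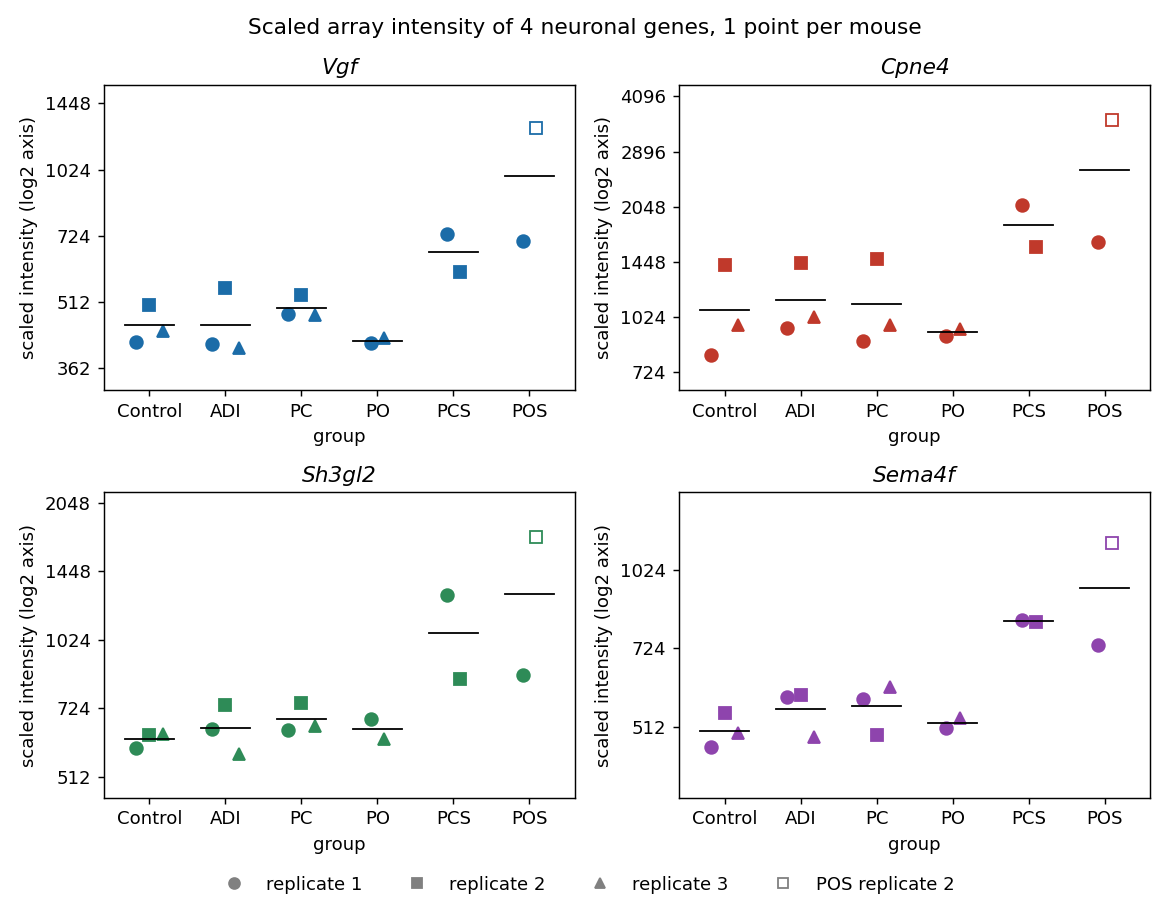
Scaled intensity of Vgf, Cpne4, Sh3gl2 and Sema4f on a log2 axis, by group, with 1 point for each of the 15 mice, marker shape for the replicate number and a line at the group's arithmetic mean. The 4 PCS and POS points lie above all 11 other points in each panel, and the open square, POS replicate 2, is the highest of all.

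Vgf, the peptide precursor, had a scaled intensity of 415, 505 and 439.9 in the 3 control mice, of 411, 550.2 and 403 in ADI, of 479.9, 531 and 478 in PC and of 413 and 423 in PO (replicates 1 and 3). In the stored groups it had 730.0 and 598 in PCS and 706 and 1277 in POS. The control, ADI and PC mice overlapped, PO lay within the range of ADI, and no PCS or POS mouse came as low as the highest of the others, ADI replicate 2. From lowest to highest the group means ran PO, control, ADI, PC, PCS and POS, from 418 ± 7.31 (SD, n = 2) through 453 ± 46.6 (SD, n = 3) in control to 664 ± 93.2 (SD, n = 2) and 991 ± 404 (SD, n = 2). Of neighbours in that order only PC and PCS did not overlap.

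For Vgf the difference from control on the log2 scale was 0.55 ± 0.24 (SE) in PCS, a 1.46-fold difference with a 95% interval of 0.035 to 1.06 (limma, adjusted p 0.705). In POS it was 1.07 ± 0.24 (SE), a 2.10-fold difference with an interval of 0.56 to 1.59 (limma, adjusted p 0.143). A single mouse carried much of the POS value. Taken over the control mean, POS replicate 1 was 1.56-fold higher and POS replicate 2 was 2.83-fold higher, whereas PCS replicates 1 and 2 were 1.62-fold and 1.32-fold higher. Without POS replicate 2 the POS difference was 0.64, from a single POS mouse, beside 0.55 in PCS. Within each array Vgf stood at percentile 52.3 to 58.3 of all features on the 11 other arrays and at 59.9 to 77.4 on the 4 stored ones.

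Cpne4, the calcium-dependent membrane binder, had 806, 1419 and 971 in controls, 956, 1436 and 1024 in ADI, 881, 1469 and 971 in PC and 908 and 950.3 in PO. With storage it had 2064 and 1591 in PCS and 1637 and 3523 in POS. The unstored mice spread widely, and replicate 2 was the highest in control, ADI and PC alike, 1.40-fold to 1.51-fold above the next mouse of its group. The lowest stored mouse, PCS replicate 2, lay only a little above PC replicate 2. The group means ran from 929 ± 29.8 (SD, n = 2) in PO through 1065 ± 317 in control, 1107 ± 317 in PC and 1139 ± 260 in ADI (SD, n = 3 each) to 1828 ± 334 in PCS and 2580 ± 1333 in POS (SD, n = 2 each). PO lay inside the control range and control, PC and ADI overlapped, while ADI and PCS did not.

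Against control, Cpne4 differed on the log2 scale by 0.81 ± 0.35 (SE) in PCS, or 1.75-fold, with a 95% interval of 0.046 to 1.57 (limma, adjusted p 0.705). In POS it differed by 1.21 ± 0.35 (SE), or 2.32-fold, with an interval of 0.45 to 1.98 (limma, adjusted p 0.143). Counting Cpne4 itself, 127 of 12439 features had a difference at least as high in PCS, and 84 in POS. With POS replicate 2 left out, the POS difference was 0.66, or 1.58-fold, from a single POS mouse. The SE in these comparisons was the widest of the 4 genes. Its percentile within an array was 67.4 to 79.8 on the unstored arrays and 81.2 to 91.8 on the stored ones. The RefSeq promoter table (GRCm38.p6) holds a pair of windows for Cpne4, shown because they hold different motifs, at chr9:104569405-104569704 and chr9:104587808-104588107, both on the + strand, each with 250 bases before a start and 50 from it. The annotated start of the gene itself lies upstream of both windows, so they do not cover every start of Cpne4. Capitals mark, on either strand, the searched motifs that were present. The first window holds an E-box (CACGTG), a GC box (GGGCGG) and, read on the opposite strand, the short CRE core TGACG, printed as CGTCA. The second holds a CCAAT box (CCAAT) alone.
Cpne4, first window: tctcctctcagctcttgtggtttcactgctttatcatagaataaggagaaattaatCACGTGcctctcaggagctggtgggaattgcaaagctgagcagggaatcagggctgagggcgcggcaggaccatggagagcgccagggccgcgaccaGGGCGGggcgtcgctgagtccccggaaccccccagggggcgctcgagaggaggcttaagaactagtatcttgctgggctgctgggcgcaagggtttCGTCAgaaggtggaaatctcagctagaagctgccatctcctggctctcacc
Cpne4, second window: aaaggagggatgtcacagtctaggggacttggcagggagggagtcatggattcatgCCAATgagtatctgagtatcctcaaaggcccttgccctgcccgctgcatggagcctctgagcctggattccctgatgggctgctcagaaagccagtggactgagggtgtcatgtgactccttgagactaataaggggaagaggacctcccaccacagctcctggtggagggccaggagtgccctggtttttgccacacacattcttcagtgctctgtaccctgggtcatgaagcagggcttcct

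Sh3gl2, endophilin A1, had the narrowest control group, at 594, 632 and 637. It had 654, 738 and 576 in ADI, 649, 745 and 664 in PC and 686 and 621 in PO, all within a narrow band. In PCS the values were 1283 and 840.1, and in POS 859 and 1725. PCS replicate 2 and POS replicate 1 were close to each other, and PCS replicate 1 and POS replicate 2 lay far above them. The group means were 621 ± 23.7 (SD, n = 3) in control, 653 ± 46.4 (SD, n = 2) in PO, 656 ± 81.1 and 686 ± 51.7 (SD, n = 3) in ADI and PC, 1062 ± 313 (SD, n = 2) in PCS and 1292 ± 612 (SD, n = 2) in POS. Neighbours overlapped along this order except PC and PCS.

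On the log2 scale Sh3gl2 differed from control by 0.74 ± 0.26 (SE) in PCS, or 1.67-fold, with a 95% interval of 0.16 to 1.32 (limma, adjusted p 0.680). Without PCS replicate 1 the difference was 0.44, and without PCS replicate 2 it was 1.05. In POS it was 0.97 ± 0.26 (SE), or 1.96-fold, with an interval of 0.39 to 1.55 (limma, adjusted p 0.143). Without POS replicate 2 it was 0.47, or 1.38-fold, from a single POS mouse. That last value was the smallest of the 4 genes on POS replicate 1. The percentile of Sh3gl2 within an array was 59.6 to 64.9 without storage and 67.9 to 82.6 with it. Its promoter window in RefSeq, chr4:85205206-85205505 on the + strand of GRCm38.p6, is shown because it is the only one of the 4 windows searched, which belong to Cpne4, Sh3gl2 and Sema4f and not to Vgf, with a full CRE (TGACGTCA), the cAMP response element through which neuronal activity is known to act on many genes. The CRE begins at base 214 of the window and directly follows a GC box read on the opposite strand, printed as CCGCCC, and it contains the short core TGACG on both strands. A further GC box begins at base 168.
Sh3gl2: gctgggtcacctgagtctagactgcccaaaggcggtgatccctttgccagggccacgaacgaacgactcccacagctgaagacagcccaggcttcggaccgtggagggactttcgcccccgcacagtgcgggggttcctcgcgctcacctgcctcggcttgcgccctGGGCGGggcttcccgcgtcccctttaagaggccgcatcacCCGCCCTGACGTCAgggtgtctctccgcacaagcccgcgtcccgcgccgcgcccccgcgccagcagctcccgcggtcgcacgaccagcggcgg

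Sema4f, the semaphorin, had 467, 544 and 497 in controls, 584, 589 and 488 in ADI, 578, 492 and 609 in PC and 509.6 and 531 in PO. Its stored values were 819 and 813 in PCS and 736 and 1156 in POS. The PCS mice were nearly equal, unlike those of the other 3 genes, and the unstored groups overlapped each other. The group means ran from 502 ± 39.1 (SD, n = 3) in control through 520.5 ± 15.4 (SD, n = 2) in PO, 554 ± 56.8 and 560.0 ± 60.7 (SD, n = 3) in ADI and PC to 816 ± 3.94 (SD, n = 2) in PCS and 946 ± 297 (SD, n = 2) in POS. PC and PCS were separate, whereas PCS lay inside the POS range.

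The log2 difference of Sema4f from control was 0.70 ± 0.19 (SE) in PCS, or 1.63-fold, with a 95% interval of 0.28 to 1.13 (limma, adjusted p 0.668). It stayed between 0.65 and 0.76 as each array in turn was left out. In POS it was 0.88 ± 0.19 (SE), or 1.84-fold, with an interval of 0.45 to 1.304 (limma, adjusted p 0.143). Without POS replicate 2 it was 0.55, or 1.47-fold, from a single POS mouse. Sema4f stood at percentile 55.1 to 60.7 within the unstored arrays and 64.5 to 75.5 within the stored ones. Its RefSeq promoter window, chr6:82939720-82940019 on the - strand of GRCm38.p6, is shown as the contrast to that of Sh3gl2. It holds no CRE, core, GC box or E-box by these letters, and 2 CCAAT boxes read on the opposite strand, printed as ATTGG.
Sema4f: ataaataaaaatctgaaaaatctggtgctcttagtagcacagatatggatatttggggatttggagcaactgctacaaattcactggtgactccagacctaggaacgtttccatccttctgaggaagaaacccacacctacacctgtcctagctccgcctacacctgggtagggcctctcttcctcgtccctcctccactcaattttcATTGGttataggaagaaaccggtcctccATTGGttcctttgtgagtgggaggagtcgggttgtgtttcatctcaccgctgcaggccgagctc

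Across the 32851 promoter windows of that RefSeq table, the full CRE was present in 1.79%, the core TGACG in 20.8%, the GC box in 35.7%, the CCAAT box in 37.4% and the E-box in 7.15%, each searched on both strands. Sh3gl2 and the first Cpne4 window had a G and C content of 70.7% and 58.7%, the second Cpne4 window 56%, Sema4f 48.7%, and the median of all windows was 52.7%. No motif was shared by all of the 4 windows printed. These matches describe the letters of a window, and the arrays do not bear on whether any factor binds there.

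The stored groups differed from control by similar amounts over the 4 genes. The median log2 difference of the 4 was 0.72 in PCS (range 0.55 to 0.81), beside a median of -0.022 over all features, and 95% of all features lay between -0.78 and 0.64. Both PCS mice lay above every control for 4 of 4 genes, which held for 13.2% of all features. All 4 had an unadjusted p under 0.05 in PCS, as had 6.66% of all features, or 2.11% on the higher side. In POS the median of the 4 was 1.02 (range 0.88 to 1.21), beside 0.042 over all features, with 95% of features between -1.73 and 0.94. Both POS mice lay above every control for 4 of 4 genes, against 15.4% of all features, and all 4 had an unadjusted p under 0.05, as had 11.6% of features on the higher side. Without POS replicate 2 the median of the 4 in POS was 0.60, and the genes stood at percentile 97.1 (Vgf), 97.4 (Cpne4), 93.4 (Sh3gl2) and 95.6 (Sema4f) of the differences of all features. With POS replicate 1 left out instead, the 4 differences in POS were 1.4995 for Vgf, 1.77 for Cpne4, 1.47 for Sh3gl2 and 1.205 for Sema4f and all passed (limma, adjusted p 1.30e-04 to 0.00225), as did 41% of all features. The PCS and POS comparisons share their controls, and the median over the 51 named genes was 0.57 in PCS and 0.81 in POS.

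**Figure D2:**
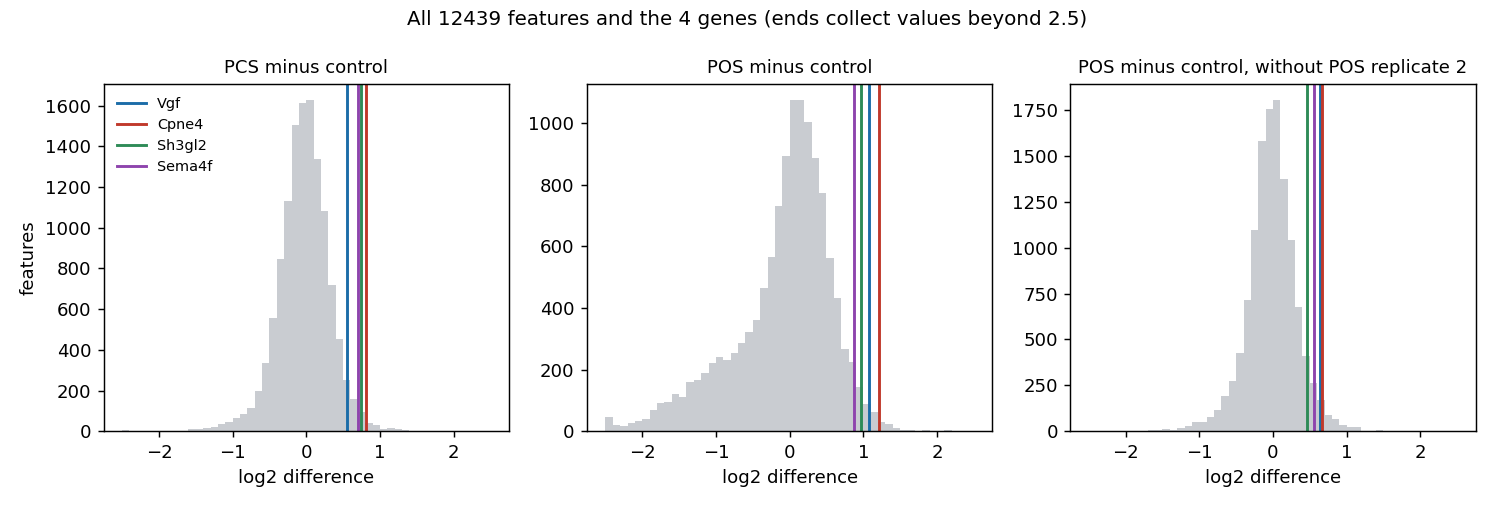
Histograms of the log2 difference from control of all 12439 features in PCS, in POS and in POS without replicate 2, with a coloured line for each of the 4 genes. The lines lie between 0.55 and 0.81 in PCS, between 0.88 and 1.21 in POS, where the whole distribution is wider, and between 0.47 and 0.66 without POS replicate 2.

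The values depended on the scaling of the brighter stored arrays. With the deposited intensities left unscaled, the log2 difference of Vgf was 1.52 ± 0.27 (SE) in PCS and 1.84 ± 0.27 in POS, that of Cpne4 1.77 ± 0.36 and 1.98 ± 0.36, that of Sh3gl2 1.71 ± 0.31 and 1.74 ± 0.31 and that of Sema4f 1.67 ± 0.23 and 1.64 ± 0.23. All 4 then passed in both comparisons (limma, adjusted p 0.00165 to 0.00209), and so did 70.4% of all features in PCS and 59.6% in POS. Unscaled, all 4 passed as well in PCS against PC, with 52.8% of all features, in POS against PO, with 43%, and in the average over cultivation, with 65.6%. Scaling by the median in place of the 75th percentile gave PCS values from 0.53 (Vgf) to 0.79 (Cpne4) and POS values from 0.92 (Sema4f) to 1.26 (Cpne4), none past the threshold.

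**Figure D3:**
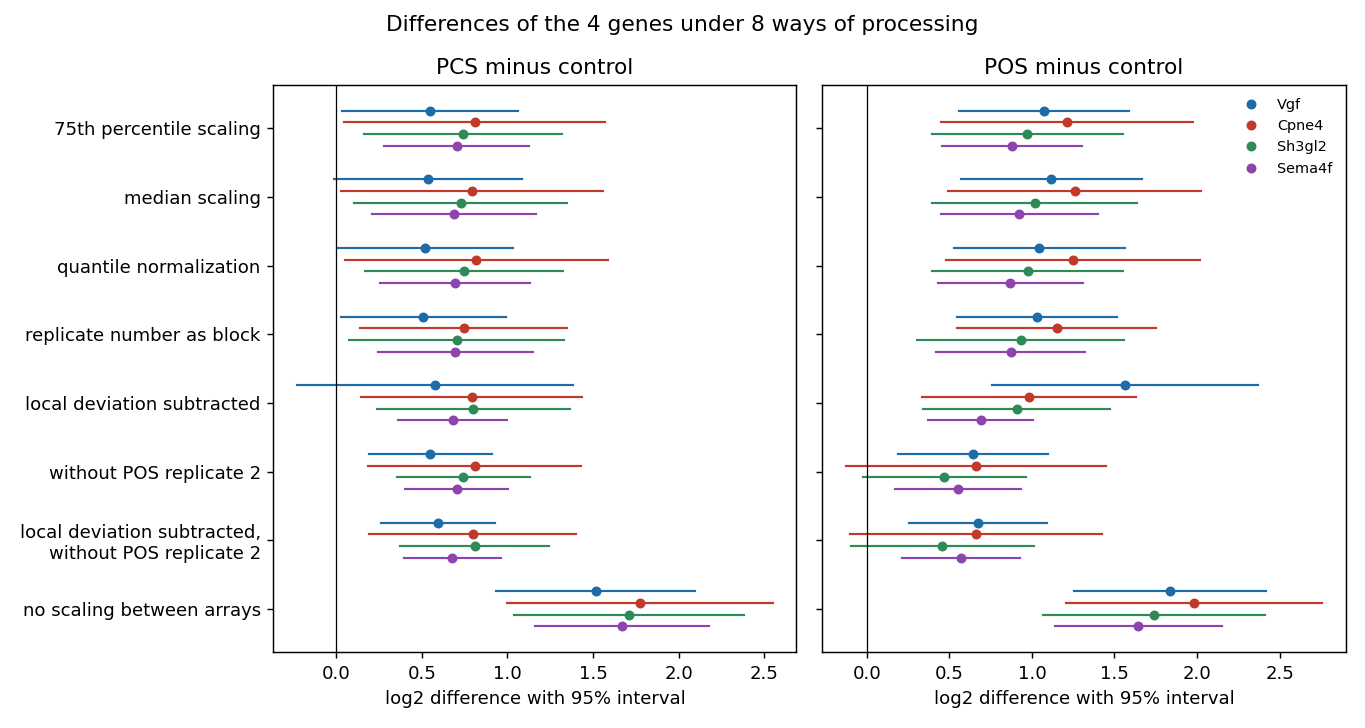
Log2 differences from control of the 4 genes in PCS and POS, with 95% intervals from limma, under 8 ways of processing. Every point lies above 0, the points without scaling lie at 1.52 to 1.98, and leaving out POS replicate 2 moves the POS points to 0.47 to 0.66.

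POS replicate 2 deviated over stretches of the array, and in different directions around the 4 genes. Over the 200 features nearest by number, its median log2 deviation from the feature mean was -0.87 around Vgf, 0.44 around Cpne4, 0.14 around Sh3gl2 and 0.38 around Sema4f. Cpne4 and Sema4f lie 454 feature numbers apart, so their 200 nearest features may in part be the same and are not separate cases. On the other 14 arrays these medians stayed between -0.093 and 0.19. Vgf was thus high on POS replicate 2 where its surroundings were low, whereas Cpne4 and Sema4f were high where their surroundings were high too. With the local deviation subtracted on every array, the POS difference of Vgf was 1.56 ± 0.37 (SE), that of Cpne4 0.98 ± 0.30, that of Sh3gl2 0.91 ± 0.26 and that of Sema4f 0.69 ± 0.15 (limma, adjusted p 0.164 for each). The PCS differences after the same step were 0.58 for Vgf, 0.79 for Cpne4, 0.80 for Sh3gl2 and 0.68 for Sema4f, none past the threshold. The part of such local deviations in the POS results was not otherwise tested.

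**Figure D4:**
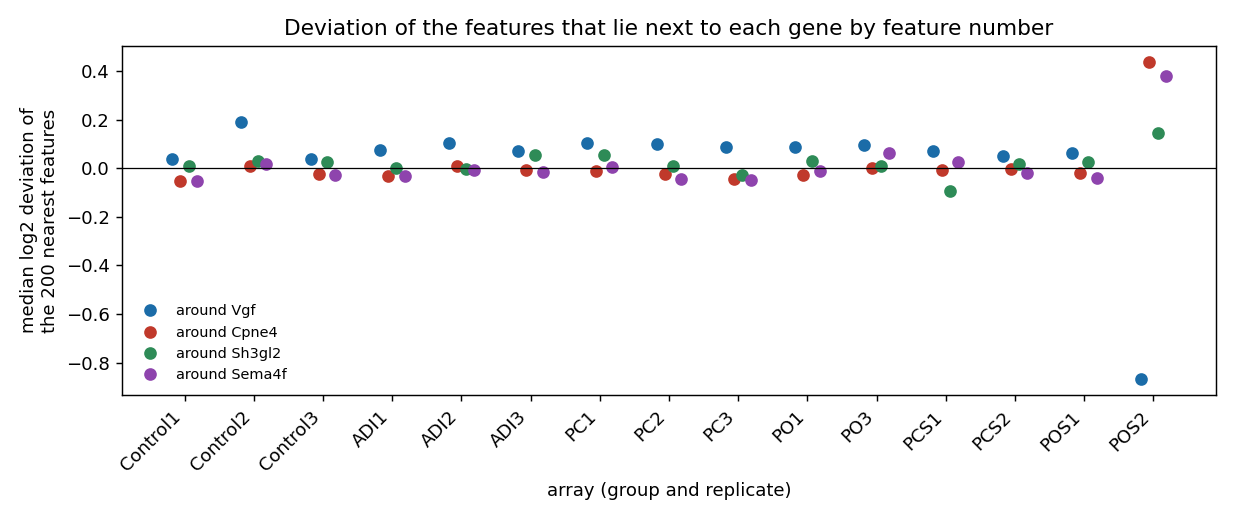
Median log2 deviation from the feature mean of the 200 features nearest by number to each of the 4 genes, for each of the 15 arrays. On 14 arrays the points lie between -0.093 and 0.19, and on POS replicate 2 they lie at -0.87 around Vgf and at 0.14 to 0.44 around the other 3.

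The pesticide mixture was compared with water. The log2 difference in ADI was -0.0044 ± 0.21 (SE) for Vgf, with a 95% interval of -0.46 to 0.46. For Cpne4 it was 0.11 ± 0.31, with an interval of -0.57 to 0.80, and for Sh3gl2 it was 0.072 ± 0.24, with an interval of -0.44 to 0.59. Sema4f had 0.14 ± 0.17 (SE), with an interval of -0.24 to 0.52, and its ADI mice, like those of the other 3 genes, overlapped the controls. By limma 0 of 12439 features passed, 196 (1.58%) had an unadjusted p under 0.05, and ADI lay wholly above control for 2.32% of features. The upper end for Cpne4 lay just short of its PCS difference of 0.81, and those of the other 3 genes lay below theirs. The PCS differences have wide 95% intervals of their own, 0.046 to 1.57 for Cpne4, and share the controls. ADI was not compared with PCS directly.

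Unstored flour was compared with water in PC and PO. In PC the log2 difference was 0.13 ± 0.21 (SE) for Vgf, 0.060 ± 0.31 for Cpne4, 0.14 ± 0.24 for Sh3gl2 and 0.15 ± 0.17 for Sema4f. Sh3gl2 was the only one whose PC mice all lay above the controls, by the small gap from 637 to 649, as did 2.54% of all features. In PO the differences were -0.11 ± 0.24 (SE) for Vgf, -0.16 ± 0.35 for Cpne4, 0.072 ± 0.26 for Sh3gl2 and 0.054 ± 0.19 for Sema4f, and all 4 overlapped the controls. No gene passed in either comparison (limma, adjusted p 1.00), in which 170 features for PC and 285 for PO had an unadjusted p under 0.05 (1.37% and 2.29%). The 95% interval of Sema4f was -0.23 to 0.53 in PC and -0.37 to 0.48 in PO, and that of Cpne4, the widest, reached from -0.62 to 0.74 in PC and from -0.92 to 0.61 in PO.

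Same-numbered mice of control, ADI and PC ran together, which showed on these genes. Replicate 2 had the highest value of its group in all 3 groups for Cpne4 and for Vgf, and in ADI and PC for Sh3gl2. For Sema4f replicate 2 was the highest in control and ADI and the lowest in PC. Over all features the residuals of same-numbered arrays correlated at r = 0.21 to 0.33 between control and ADI and at r = 0.15 to 0.30 between control and PC. With the replicate number as a block the SE of Cpne4 in ADI and PC against control was 0.23 in place of 0.31 and that of Vgf 0.19 in place of 0.21. The SE of Sh3gl2 was 0.244 in place of 0.237 and that of Sema4f 0.176 in place of 0.174. None of the 4 passed in that fit (limma, adjusted p 1.00). Without PC replicate 2 the log2 difference of Cpne4 in PC was -0.16, and without control replicate 2 it was 0.29.

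Storage itself was addressed by PCS against PC and POS against PO. In PCS against PC the log2 difference was 0.41 ± 0.24 (SE) for Vgf, 0.75 ± 0.35 for Cpne4, 0.60 ± 0.26 for Sh3gl2 and 0.55 ± 0.19 for Sema4f (limma, adjusted p 0.815 to 0.920). In POS against PO it was 1.18 ± 0.26 for Vgf, 1.37 ± 0.38 for Cpne4, 0.90 ± 0.29 for Sh3gl2 and 0.83 ± 0.21 for Sema4f (limma, adjusted p 0.175 for each). The stored mice lay above the unstored ones for 4 of 4 genes in both, against 13.9% of all features for PCS and PC and 23.2% for POS and PO. In PCS against PC the unadjusted p was under 0.05 for Sh3gl2 and Sema4f alone, against 5.4% of all features, or 1.87% on the higher side. In POS against PO it was under 0.05 for all 4, against 24.4% of all features, or 11.2% on the higher side. With POS replicate 1 left out, all 4 passed in POS against PO, with 38.7% of all features. Averaged over cultivation, Cpne4 differed by 1.06 ± 0.26 (SE), with 50 features, itself among them, at least as high. The other averages were 0.80 ± 0.18 for Vgf, 0.75 ± 0.20 for Sh3gl2 and 0.69 ± 0.14 for Sema4f (for the 4, limma, adjusted p 0.102 to 0.127). Without POS replicate 2 these averages were 0.78 for Cpne4, 0.59 for Vgf, 0.50 for Sh3gl2 and 0.52 for Sema4f. With POS replicate 1 left out instead, so that POS replicate 2 stood alone, they were 1.34, 1.01, 1.00 and 0.85 in the same order, and all passed, as did 36.6% of all features.

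Conventional and organic potatoes were set side by side without and with storage. PC against PO gave log2 differences of 0.25 ± 0.24 (SE) for Vgf, 0.22 ± 0.35 for Cpne4, 0.069 ± 0.26 for Sh3gl2 and 0.100 ± 0.19 for Sema4f (limma, adjusted p 1.00). The PC mice lay above the PO mice for Vgf alone, as for 8.51% of all features. PCS against POS gave -0.52 ± 0.26 (SE) for Vgf, with a 95% interval of -1.09 to 0.041 (limma, adjusted p 0.365). For Cpne4 it was -0.41 ± 0.38, for Sh3gl2 -0.23 ± 0.29 and for Sema4f -0.18 ± 0.21 (limma, adjusted p 0.607 to 0.703), and PCS and POS overlapped on all 4. With POS replicate 2 left out, the values were -0.095 for Vgf, 0.15 for Cpne4, 0.27 for Sh3gl2 and 0.15 for Sema4f. Only Vgf kept the negative sign, and no value passed. With POS replicate 1 left out instead, Vgf at -0.95 and Sh3gl2 at -0.73 passed (limma, adjusted p 0.00616 and 0.0367) and Cpne4 and Sema4f did not, while 31.8% of all features did. None of the 4 was higher in PCS at an unadjusted p under 0.05, where 8.98% of features were.

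The interaction asked whether the storage difference depended on cultivation. For Vgf the storage difference in conventional potatoes minus that in organic ones was -0.77 ± 0.35 (SE) on the log2 scale, with a 95% interval of -1.53 to -0.0049 (limma, adjusted p 0.691). For Cpne4 it was -0.62 ± 0.52, for Sh3gl2 -0.30 ± 0.39 and for Sema4f -0.28 ± 0.29 (limma, adjusted p 0.716 to 0.816). With POS replicate 2 left out, it was -0.34 for Vgf, -0.070 for Cpne4, 0.20 for Sh3gl2 and 0.050 for Sema4f. By limma 0 of 12439 features passed, with 509 (4.09%) at an unadjusted p under 0.05. With POS replicate 1 left out, Vgf had -1.196 and passed (limma, adjusted p 0.00726), as did 23.6% of all features.

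The named genes most like each of the 4 over the arrays used were found by Pearson's r of log2 values over 15 arrays, and the gap between stored and unstored mice enters every r. Vgf was most like Rbfox2, an RNA-binding splicing regulator (r = 0.98), Smarcc1, a subunit of BAF chromatin remodelling complexes (r = 0.97), and Myf5, a muscle transcription factor (r = 0.96). Cpne4 was most like Gatad2a, a NuRD complex subunit (r = 0.99), the olfactory receptor Olfr1183 (r = 0.98) and Catsperb, a sperm calcium channel subunit (r = 0.97). Sh3gl2 was most like Agap1, a GTPase-activating protein for Arf (r = 0.96), Rbfox2 (r = 0.96) and Gpsm3, a modulator of G protein signalling (r = 0.96). Sema4f was most like Kcna6, a voltage-gated potassium channel (r = 0.95), Vgf (r = 0.92) and Agap1 (r = 0.92). The first gene of each list stayed first without POS replicate 2, except for Sh3gl2, where Synm, an intermediate filament protein, came first (r = 0.94 over 14 arrays). Among themselves the 4 genes were most alike for Vgf and Cpne4 (r = 0.95) and least for Cpne4 and Sema4f (r = 0.86, and 0.72 without POS replicate 2).

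Over the 11 arrays without stored potatoes the same measure gave lower values for Sema4f than for most other pairs. Vgf and Cpne4 had r = 0.80 and Vgf and Sh3gl2 r = 0.72, whereas Sema4f had r = 0.40 with Vgf, 0.36 with Sh3gl2 and 0.14 with Cpne4. Of all 12439 features, 158 were at least as like Vgf as Cpne4 was, 418 as Sh3gl2 was and 2519 as Sema4f was. In turn, 367 features were at least as like Cpne4 as Vgf was, and 127 at least as like Sh3gl2. Kcna6 was again the named gene most like Sema4f (r = 0.77), and Gatad2a (r = 0.95) and Olfr1183 (r = 0.93) were again most like Cpne4. The first gene changed for the other 2: Ncs1, a neuronal calcium sensor, came first for Vgf (r = 0.88) and for Sh3gl2 (r = 0.77). Smarcc1 and Myf5 were no longer among the 3 most like Vgf, nor Agap1 and Gpsm3 among the 3 most like Sh3gl2, and Synm took the place of Catsperb for Cpne4. These r values describe 11 arrays that share replicate numbers and carry no test.

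Of the wider gene lists drawn up for these roles, few members have a name in the files. One of 21 neuropeptide and granin genes is named (Vgf), as are 1 of 9 copines (Cpne4), 1 of 15 genes of vesicle endocytosis (Sh3gl2) and 1 of 22 semaphorins and receptors (Sema4f). Of 8 vesicle release genes and 6 activity-induced genes none is named. The pathways around the 4 genes were therefore not analysed here. The authors' own grouping puts Vgf and Sema4f among 7 nervous system genes and Cpne4 and Sh3gl2 under carcinogenesis. The 7 include Kcna6, Lmbr1, Ypel1, Olfr1183 and Olfr1278. Their median log2 difference from control was 0.59 in PCS and 0.97 in POS, beside 0.57 and 0.81 for the 51 named genes. None of the 7 passed over all features. Both PCS mice lay above every control for 6 of the 7, against 13.2% of all features. Both POS mice did so for 6 as well, against 15.4%. The 7 genes come from the authors' list on these same arrays, so these counts are not independent evidence.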

How the data were processed

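RNA from the brains of 18 mice, in 6 groups of 3, was hybridised to one-colour Agilent arrays; samples were grouped by title. The authors deposited intensity values for 12439 features, as linear values without scaling between arrays, judged from array medians that differ, values at or below 0 and a ceiling of 65535. Agilent Feature Extraction is named, without a version or role, per the submitters' processing notes. The authors also deposited a table whose feature number pairs 51 genes with features. Its fold columns were not used. All 4 symbols matched the RefSeq table of GRCm38.p6 by accession, among 46 of the 51.

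15 arrays were used, and the arrays left out were chosen after the columns had been examined. Each was scaled to a common 75th percentile (the geometric mean over arrays, 1132), values below 16 were set to 16, and log2 was taken. limma 3.58.1 (lmFit, eBayes; R 4.3.3) fitted the 6 group means once and gave 11 comparisons, with Benjamini-Hochberg adjusted p-values over the 12439 features and a threshold of 0.05. The interaction was added later. The planned local correction subtracted on each array the median deviation of the 200 features nearest by number. Differences are between mean log2 values, with the SE from limma, and group levels are arithmetic means ± SD. Where leaving out an array left a group with a single mouse, the spread came from the other groups alone. Detection flags were not used here, and precision is limited by how few arrays there are. Replicate numbers paired the control, ADI and PC arrays, judged by correlated residuals (r over 0.1 in every pair). Between PO and these 3 groups r was 0.050 to 0.19, and between stored arrays and others -0.13 to 0.066. With 2 arrays in each of PO, PCS and POS, the residuals within a group mirror each other. These last r values therefore say little about pairing. The scripts were tested on simulated data. The 4 genes, the lists and the rule for named genes (the 4, and for each the 3 named genes with the highest r) were chosen with earlier results of these data known. Synm and Ncs1 follow the same rule over fewer arrays, the latter over the 11 without stored potato, a subset chosen after the data had been seen.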

Additional observations from a re-analysis of the deposited data

Results flagged for a closer look

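The 3 arrays left out of every comparison carried values above all 3 controls for the 4 genes, scaled in the same way to the 75th percentile, except for Cpne4 on PCS replicate 3 and POS replicate 3. On PCS replicate 3 and POS replicate 3, Vgf had a scaled intensity of 14640 and 15503.5, at percentile 96.8 and 96.9 of all features, where the 15 arrays used had 403 to 1277. On the same arrays Sh3gl2 had 897 and 715 and Sema4f had 619 and 559.7, against a highest control of 637 and 544. Cpne4, at 622 and 518, lay below its controls there. These columns correlated with each other at r = 0.95 over features and negatively with the 15 arrays used, and POS replicate 3 is labelled day 27. On PCS replicate 3 and POS replicate 3, 1113 and 1110 features lay below the floor of 16, against 8 to 145 on the arrays used. The share of all features above the controls on the arrays left out was not counted. On PO replicate 2 Vgf had 631, Cpne4 1700.5, Sh3gl2 1067 and Sema4f 727, and this column averages PO replicate 3 with PCS replicate 1 in every feature. Each result is a value outside the arrays compared. The values on PO replicate 2 are set by the 2 arrays it averages. For PCS replicate 3 and POS replicate 3 the cause was not tested. No group had the 4 mice that a check for single outlying samples needs.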

How the results depend on the processing

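All 4 genes kept the separation of stored from unstored mice by rank within arrays, without scaling, with local deviations subtracted, without POS replicate 2, and with the last 2 together. Of all features, 1.87% had it as reported and 2.32% without POS replicate 2. In the other runs that share was not counted. Without scaling the stored arrays were brighter, and 65.6% of all features passed in the storage average. The 4 genes come from the authors' list on these arrays, so the kept separation is not independent evidence. In the comparisons of stored potato with water or with unstored potato, and in the storage average, the difference of all 4 genes stayed above 0 in every alternative run, and passed without scaling and, where POS enters, without POS replicate 1 (the lone POS mouse was then assumed to vary like the other groups). Without POS replicate 1, Vgf and Sh3gl2 in PCS against POS and Vgf in the interaction passed too. With all 18 arrays the PCS and POS differences were 2.04 and 2.42 for Vgf but 0.29 and 0.48 for Cpne4. That run brings back PO replicate 2, which averages in PCS replicate 1, and the arrays that correlated negatively with every array used. It is therefore no independent check of the differences. The replicate block changed no call of the 4 genes. Arrays and their number limit what the small differences can show.

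Numbers of features past the threshold, 0 in each comparison as reported, moved as follows; the causes were not tested. The trended robust fit and the local subtraction without POS replicate 2 were chosen after seeing the data. Without scaling they were 8756 (PCS against control), 7412 (POS against control), 6562 (PCS against PC), 5347 (POS against PO) and 8165 (storage average). With a floor of 64 they were 2, 5, 1, 0 and 4 in that order. POS against control gave 1 with median scaling, 2 with quantile normalization, 1 among features with a mean of at least 100 and 5 with the trended robust fit, which also gave 1 for PCS against control and 1 for the average. Quantile normalization gave 1 for the average, as did local deviation subtracted without POS replicate 2. Array weights gave 2 for PC and 5 for PCS against control. The replicate block gave 2 for PCS against control, and the replicate block without POS replicate 2 gave 53 there, 40 for PCS against PC and 68 for the average. Leaving out 1 array at a time gave 0 to 1 for PC, 0 to 2 for PO and for PCS and 0 to 5104 for POS against control, 0 to 2 for PCS against PC and for PC against PO, 0 to 4812 for POS against PO, 0 to 4551 for the average, 0 to 3959 for PCS against POS and 0 to 2930 for the interaction. The highest POS values came without POS replicate 1.

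Signs turned for some genes in ADI, PC and PO against control, in PC against PO, in PCS against POS and in the interaction, none of which had passed. In ADI, Vgf was 0.051 without scaling, 0.0089 with array weights, 0.0026 with local deviation subtracted and 0.025 with that and POS replicate 2 left out. In PO, Vgf was 0.038 without scaling and 0.087 with all 18 arrays, and Cpne4 0.13 with all 18 and 0.019 with the replicate block. With all 18 arrays PC against PO was -0.075 for Cpne4, -0.17 for Sh3gl2 and -0.061 for Sema4f, and the interaction was 0.12 for Sh3gl2. In that run PO takes in the column that averages in a stored potato array. In PCS against POS, Sema4f was 0.025 without scaling. The replicate block without POS replicate 2 gave 0.29 for Sh3gl2 and 0.15 for Sema4f there, and 0.23 and 0.050 for the interaction. Local deviation subtracted without POS replicate 2 gave 0.13 for Cpne4, 0.35 for Sh3gl2 and 0.11 for Sema4f in PCS against POS and 0.27 for Sh3gl2 in the interaction.

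With each array left out in turn, ADI against control ran from -0.15 to 0.076 for Vgf, from -0.067 to 0.34 for Cpne4 and from -0.016 to 0.16 for Sh3gl2. PC against control ran from -0.16 to 0.29 for Cpne4, and PO against control from -0.34 to 0.071 for Cpne4 and from -0.00047 to 0.14 for Sh3gl2. PC against PO ran from -0.0063 to 0.36 for Cpne4 and from -0.0031 to 0.14 for Sh3gl2. PCS against POS ran from -0.96 to 0.15 for Cpne4, from -0.73 to 0.27 for Sh3gl2 and from -0.50 to 0.15 for Sema4f, and the interaction from -0.80 to 0.20 for Sh3gl2 and from -0.60 to 0.050 for Sema4f.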
